A study of Homo sapiens with 6 samples.

Results

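The genes described here are 55 named members of human DNA repair: the Fanconi anaemia (FA) pathway, homologous recombination, break sensing and checkpoint signalling, end joining, single-strand break repair, mismatch repair and nucleotide excision repair. They were chosen by gene symbol. All 55 were among the 19201 entries of the count table, and all 55 passed the filter on low counts that left 19101 entries. The cells of both groups were H1299, an established line from a human lung cancer of the non-small cell kind. The groups were 3 libraries labelled lncBCAS1-4_1 overexpressed, after the long non-coding RNA, and 3 labelled wildtype. No other allele or agent is given in the labels. The labels name no vector for the wild-type cells and no clone or separate culture for any library, so the overexpression procedure and the RNA cannot be told apart, and p-values measure the spread between these libraries, which may be technical. By its title the series deals with this RNA, CYP24A1 and active vitamin D in lung cancer.

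DNA repair divides by the kind of lesion. The FA core complex is a ubiquitin ligase that marks the FANCD2-FANCI pair at DNA interstrand crosslinks, and BRCA1, BRCA2, PALB2 and their partners then act in homologous recombination at resected ends. ATM and ATR are the kinases that signal breaks and stalled forks, Ku and DNA-PKcs hold ends for direct joining, and the ERCC and XP proteins cut out bulky adducts. Many recombination genes are transcribed mainly in S and G2 phase, whereas excision and end joining genes vary less over the cycle.

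Total counts ran from 84531039 to 90102655 in the overexpressing libraries and from 87393887 to 92780032 in the controls. The repair genes took 0.531% to 0.550% of all counts in the overexpressing libraries, against 0.596% to 0.615% in the controls, and each had at least 128 counts in every library. Levels are given as CPM, counts scaled to the TMM-adjusted library size. Of 5 listed epithelial markers 4 were tested. The keratins KRT8 and KRT18 stood at 446 and 1301 mean CPM in the overexpressing cells and at 368 and 956 mean CPM in the controls. KRT7 was low, at 5.09 mean CPM in the overexpressing cells and 2.79 in the controls, and KRT19 was near absent, at 0.170 mean CPM in the overexpressing cells and 0.184 in the controls. Among the listed markers of lung identity, endothelial cells and fibroblasts, the entries tested were NKX2-1, PECAM1, VWF, COL1A1 and DCN, each under 2 mean CPM in both groups.

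Most repair genes that changed were lower with overexpression. By edgeR's quasi-likelihood test, with p adjusted over all entries and a threshold of 0.05, 28 of 55 (50.9%) were lower and 8 (14.5%) were higher, beside 19.7% lower and 18.3% higher among all 19101 entries. Calls are easier at high counts. Among the 12683 entries at or above the mean CPM of the lowest repair gene, 28.1% were lower and 25.4% higher. The repair genes had a median log2 fold change of -0.35, beside -0.0041 for all entries. No repair gene changed by 2-fold, and 14 of 55 had a difference over 1.5-fold, among them ERCC5, which did not pass the threshold. Of all 19101 entries, passing or not, 1117 changed by over 2-fold and 3670 by over 1.5-fold. The overexpressing libraries all lay below the controls for 30 repair genes (54.5%) and all above for 11, beside 26% and 24.7% of all entries. The count of 8 higher genes was 5 without control 1, 3 without control 2, 5 without overexpressing library 1 and 5 without overexpressing library 2.

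**Figure D1:**
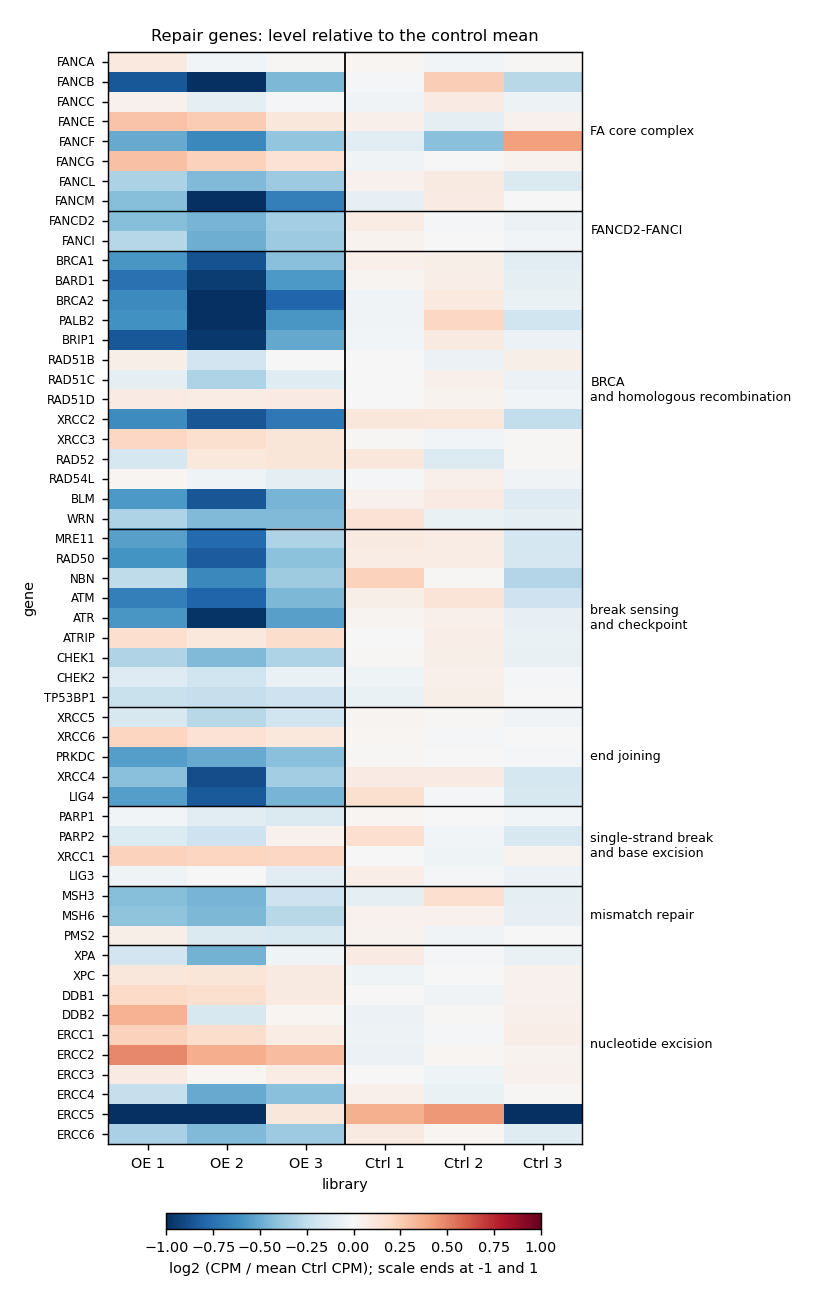
Level of each repair gene (rows, grouped by role) in each library (columns; OE, overexpressing; Ctrl, wild-type control), as log2 of its CPM over the mean CPM of the 3 controls, with colours ending at -1 and 1. BRCA1, BARD1, BRCA2, PALB2, ATM and ATR are blue in all 3 overexpressing libraries and deepest in OE 2, while ERCC5 is dark in OE 1, OE 2 and Ctrl 3.

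The direction of change followed the base composition of the transcripts. All 28 lower genes had canonical transcripts of at most 45.7% GC, and all 8 higher genes had at least 48.4% GC. Over the 55 genes the Spearman correlation of GC content with log2 fold change was 0.86, given as a description since all points share the same 6 libraries. It was 0.72 over the 10223 entries with a mean log2 CPM above 3. The bounds of 4 equal bins of GC content were set on these entries, and all 55 repair genes were placed in them, FANCB, FANCF, FANCM and LIG4 from below that level among them. The lowest bin (30.7% to 41.8%) held 21 repair genes, of which 20 were lower and none higher, in a bin where 69.8% of these entries were lower. Of the 6 in the highest bin (56.6% to 74.4%), 5 were higher and none lower, where 64.3% of these entries were higher. From the lowest bin to the highest, the repair genes had median log2 fold changes of -0.61, -0.22, 0.071 and 0.22. The entries of the same bins had medians of -0.38, -0.14, 0.12 and 0.27, each above that of the repair genes. The bins were not matched for length, and the repair genes had a median transcript length of 4245 bases against 2640.5 over all entries. Transcript length moved with the fold change too, with a Spearman correlation of -0.46 over the 55 genes, and so did GC content with length (-0.33).

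**Figure D2:**
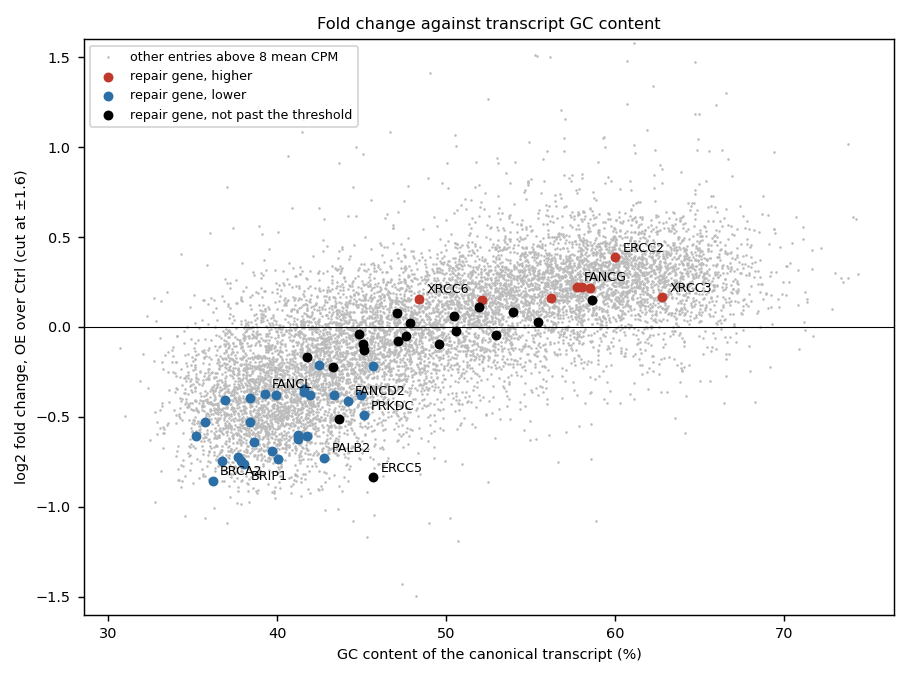
Log2 fold change (OE over Ctrl) against the GC content of the canonical transcript in percent. Grey points are the other entries above 8 mean CPM and coloured points are the repair genes by their call: the lower genes (blue) lie at or left of 45.7% GC, the higher genes (red) at or right of 48.4% GC, and the grey points slope the same way.

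The same property separated libraries inside each group. Control 3 was the lowest control for 24 of the 28 lower genes, and overexpressing library 2 was the lowest of its group for 27 of them. Across the 10223 entries, the deviation of a library from its own group mean had a Spearman correlation with GC content of 0.21, 0.45 and -0.64 in overexpressing libraries 1 to 3, and of -0.43, -0.47 and 0.66 in controls 1 to 3. Fold changes are therefore given also after a correction that subtracts, in each library, the smooth trend of log2 CPM on GC content and transcript length. By its construction it takes out the trend with GC content over all entries, whatever its source. Over the 55 repair genes, GC content and corrected log2 fold change still had a Spearman correlation of 0.43. What set the trend was not tested.

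After the correction 12 repair genes (21.8%) were lower and 2 (3.64%) higher, beside 11.6% lower and 10.7% higher among all entries, and 16.6% lower and 15.1% higher among those at or above the lowest repair gene. The median log2 fold change of the repair genes was then -0.097, beside -0.016 over all entries. From the lowest GC bin to the highest, the repair genes had corrected medians of -0.22, -0.086, -0.047 and -0.072. The 12 became 6 without control 1, 4 without control 2 and 5 without overexpressing library 2, and were 15 without overexpressing library 1. Other forms of the correction gave 18 lower genes with GC content alone, 19 with the median GC content and length over transcripts, and 8 with a block on the replicate number. Calls in the same direction with and without the correction were made for 10 genes: FANCD2, BARD1, PALB2, BRIP1, XRCC2, BLM, ATR, PRKDC and MSH6 were lower, and ERCC2 was higher. Of these, FANCD2, BARD1, PRKDC and MSH6 kept their call in all 23 alternative settings run for them. The other 6 lost it in 4 to 7 settings, all with a GC correction in the fit, with adjusted p up to 0.126 (ATR).

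**Figure D3:**
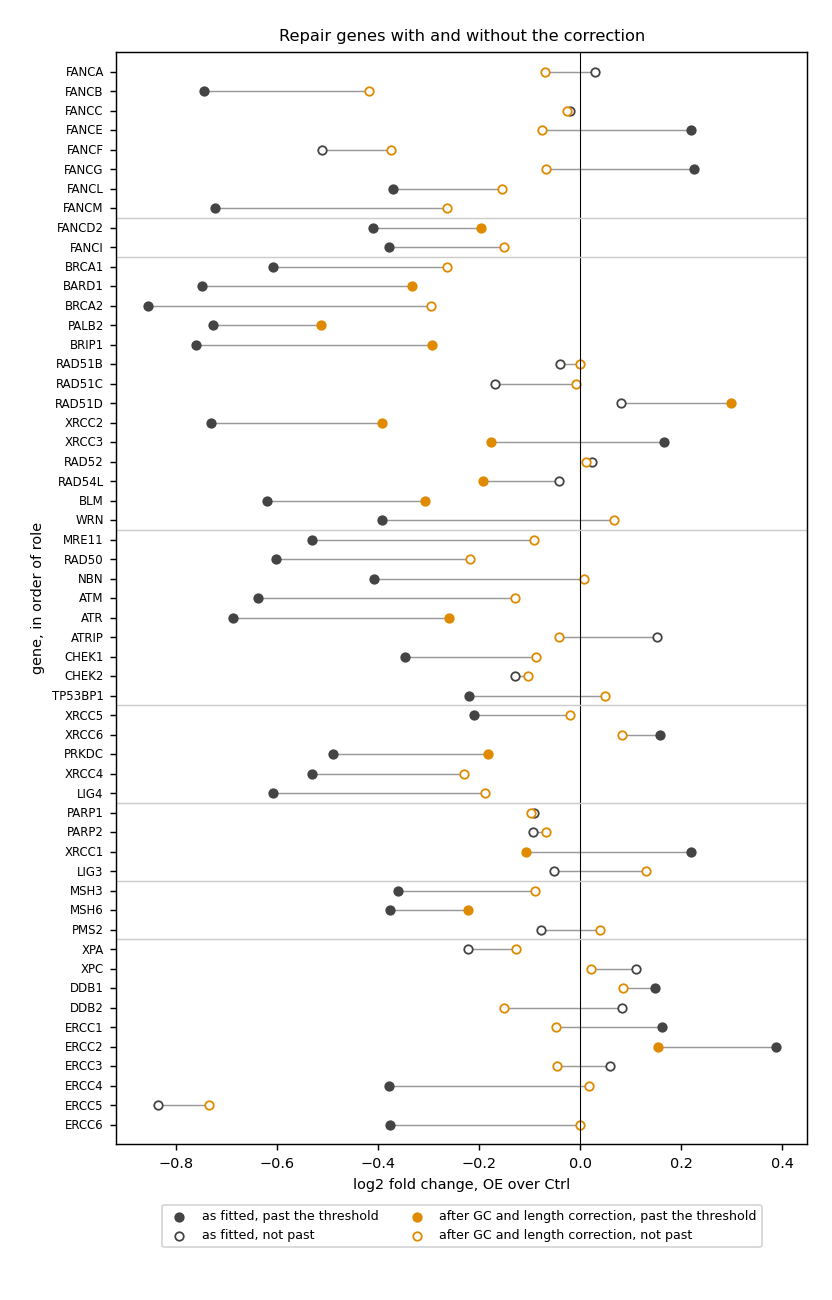
Log2 fold change (OE over Ctrl) of each repair gene as fitted (grey) and after the GC and length correction (orange), filled where the adjusted p was under 0.05, in order of role. Correction moves BRCA1, BARD1, BRCA2, BRIP1, ATM and ATR toward 0, moves RAD51D and RAD54L away from it, and carries FANCE, FANCG, XRCC3, XRCC1 and ERCC1 from above 0 to below it.

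BRIP1 and ERCC2 show the contrast in the letters themselves. Both encode DNA helicases of the iron-sulfur cluster family, BRIP1 (also FANCJ) acting with BRCA1 and ERCC2 (also XPD) opening DNA for excision within TFIIH. BRIP1 was lower, and ERCC2 had the highest log2 fold change of the 55. The first 120 coding bases of each are printed 5′ to 3′ with G and C in capitals, from the GENCODE 44 canonical transcripts (GRCh38); both genes lie on the minus strand, and the stretches span exons between positions 61859881 and 61861539 of chromosome 17 and between 45369133 and 45370540 of chromosome 19.
BRIP1: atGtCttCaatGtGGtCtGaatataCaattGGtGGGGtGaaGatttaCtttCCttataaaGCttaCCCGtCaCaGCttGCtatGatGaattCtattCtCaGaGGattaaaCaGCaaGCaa
ERCC2: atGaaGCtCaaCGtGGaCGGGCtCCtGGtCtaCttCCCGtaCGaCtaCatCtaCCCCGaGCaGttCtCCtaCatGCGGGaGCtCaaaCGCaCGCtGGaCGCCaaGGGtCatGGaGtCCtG
The BRIP1 stretch has 37.5% GC and the ERCC2 stretch 58.3%. At the third codon position over the whole coding sequence, BRIP1 had 31.1% GC and ERCC2 80.9%. XRCC2 and XRCC3, both of homologous recombination, differed likewise, with 34.6% and 76.9% GC at the third position. These pairs are examples, and GC content at the third position was not compared with fold change over the 55 genes.

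Promoter motifs were found on both sides. Windows of 250 bases upstream of the start were given for 50 of the 55 genes in the RefSeq promoter table (GRCh38.p14), and motifs were sought as exact letters on both strands. A gene with several windows counted if any of them held the word. The shares of all genes cover every gene with a window, expressed in these cells or not, so they are not matched to the repair genes. The GC box GGGCGG was found for 16 of 23 lower genes with a window (69.6%) and for 8 of 8 higher genes (100%), beside 46.2% of all 27305 genes. CCAAT, the NF-Y core, was found for 11 of 23 lower (47.8%) and 5 of 8 higher genes (62.5%), beside 37.0% of all. TTTGAA, the core of the cell cycle homology region, was found for 3 of 23 lower genes (13.0%) and 2 of 8 higher ones (25.0%), beside 16.1% of all genes. The E2F-type words TTTCCCGC, TTTGGCGC and TTTCGCGC were found for 2, 1 and 2 of the 50 genes (FANCC and XPC, MSH3, and FANCC and MSH3), at 4.00%, 2.00% and 4.00% beside 1.70%, 0.681% and 0.542% of all. GAAACTGAA, an interferon response type word, was found for none of the 50 and for 0.557% of all genes.

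The windows of 3 lower genes and of ERCC2, a higher gene, are shown as examples picked for carrying both CCAAT and a GC box. Their sharing of these words was thus set by the choice and says nothing about direction. Of the 8 genes lower in both fits with a window, 4 had CCAAT and 6 had a GC box. Capitals mark the CCAAT, the GGGCGG and the TTTGAA words on either strand. In GRCh38.p14 they lie at chr17:61863529-61863778 (BRIP1, minus strand), chr15:90717096-90717345 (BLM, plus strand), chr2:47782895-47783144 (MSH6, plus strand) and chr19:45370574-45370823 (ERCC2, minus strand).
BRIP1 promoter: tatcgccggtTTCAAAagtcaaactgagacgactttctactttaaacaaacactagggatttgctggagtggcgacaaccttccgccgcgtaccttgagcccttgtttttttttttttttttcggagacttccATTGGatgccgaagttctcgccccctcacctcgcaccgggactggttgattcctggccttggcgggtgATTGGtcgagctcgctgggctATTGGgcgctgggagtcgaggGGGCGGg
BLM promoter: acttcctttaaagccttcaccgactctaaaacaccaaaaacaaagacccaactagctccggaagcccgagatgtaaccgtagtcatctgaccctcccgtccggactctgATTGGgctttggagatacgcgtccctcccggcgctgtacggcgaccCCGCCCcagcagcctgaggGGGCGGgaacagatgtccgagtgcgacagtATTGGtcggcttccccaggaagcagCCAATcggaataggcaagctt
MSH6 promoter: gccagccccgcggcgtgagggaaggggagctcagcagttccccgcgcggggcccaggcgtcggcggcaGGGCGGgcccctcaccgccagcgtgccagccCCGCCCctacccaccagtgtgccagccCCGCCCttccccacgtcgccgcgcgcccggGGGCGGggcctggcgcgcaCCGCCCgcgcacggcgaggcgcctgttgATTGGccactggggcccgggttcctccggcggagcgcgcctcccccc
ERCC2 promoter: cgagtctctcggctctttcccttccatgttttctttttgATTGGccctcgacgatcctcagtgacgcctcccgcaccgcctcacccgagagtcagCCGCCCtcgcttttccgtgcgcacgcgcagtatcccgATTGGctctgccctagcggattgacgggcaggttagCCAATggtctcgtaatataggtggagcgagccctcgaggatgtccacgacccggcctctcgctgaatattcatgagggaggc
CCAAT occurs 3 times in the windows of BRIP1, BLM and ERCC2 and 1 time in that of MSH6, and GGGCGG occurs 5 times in MSH6, 2 in BLM and 1 in each of BRIP1 and ERCC2. The GC content of these windows was 54.0% for BRIP1, 57.6% for BLM, 81.2% for MSH6 and 59.6% for ERCC2, so BRIP1 and MSH6, both lower, sit at the ends.

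Among the 8 genes of the FA core complex, 3 were lower and 2 higher, and none passed after the correction. Those counts lie near the 28.1% lower and 25.4% higher among the entries at or above the lowest repair gene. FANCB, an X-linked scaffold of the catalytic module, had 4.81, 4.34 and 6.33 CPM in overexpressing libraries 1 to 3 and 8.56, 10.2 and 7.16 CPM in controls 1 to 3. The groups did not overlap, and the lowest control stood near the highest overexpressing library. Its log2 fold change was -0.75 (SE 0.18, adjusted p = 0.010) as fitted and -0.42 (adjusted p = 0.060) corrected. FANCM, the translocase that brings the complex to DNA, and FANCL, its ubiquitin ligase subunit, fell by 0.72 and 0.37 on the log2 scale, with corrected values of -0.26 and -0.16. FANCG, an adaptor subunit, went the other way, with 121, 116.5 and 110 CPM in the overexpressing libraries against 96.6, 99.6 and 101 CPM in the controls. All overexpressing libraries were above all controls, by a log2 fold change of 0.22 (SE 0.05, adjusted p = 0.0055) that became -0.067 (adjusted p = 0.24) corrected. FANCE, which links the core to FANCD2, rose by 0.22 on the log2 scale (-0.076 corrected), a call lost without control 1 or 2 or overexpressing library 1 or 2 (0.17 to 0.25, adjusted p = 0.0565 to 0.129). FANCA, FANCC and FANCF had log2 fold changes of 0.030, -0.021 and -0.51 and did not pass (adjusted p = 0.66, 0.83 and 0.11). Without control 2 FANCF was at -0.68 and passed (adjusted p = 0.0489). FANCF was the least expressed repair gene, at 1.68 ± 0.15 CPM in the overexpressing cells and 2.40 ± 0.71 CPM in the controls (SD, n = 3 each). Transcript GC content was 36.8% in FANCB, which was lower, and 57.8% in FANCG and 58.1% in FANCE, which were higher. FANCA and FANCC, which did not pass, had 55.4% and 50.6%.

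Both members of the pair that the core complex ubiquitinates were lower. FANCD2 had 51.7, 50.4 and 55.0 CPM in overexpressing libraries 1 to 3 and 73.1, 68.9 and 66.7 CPM in controls 1 to 3, with no overlap. It fell by 0.41 on the log2 scale (SE 0.05, adjusted p = 0.00056) and by 0.20 (adjusted p = 0.010) after the correction. FANCI had 81.5, 70.9 and 77.3 CPM against 102, 99.3 and 97.7 CPM in the controls, again with no overlap. It fell by 0.38 (adjusted p = 0.00089), with a corrected value of -0.15 (adjusted p = 0.083).

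The 14 genes around BRCA1 and BRCA2 held the largest falls: 8 were lower and 1 higher, with a median log2 fold change of -0.50, and 5 of the 8 stayed lower after the correction. Among the entries at or above the lowest repair gene, 28.1% were lower and 25.4% higher as fitted, and 16.6% were lower corrected. BRCA2, a mediator of homologous recombination, had 9.42, 6.36 and 8.45 CPM in the overexpressing libraries and 14.3, 15.7 and 13.9 CPM in the controls. Every overexpressing library was below every control, and the log2 fold change of -0.86 (SE 0.15, adjusted p = 0.0018) was the lowest of the 55. With 36.2% GC and 11954 bases BRCA2 also has one of the longest and most AT-rich transcripts of the set, and its corrected value was -0.30 (SE 0.13, adjusted p = 0.14). BRCA1 averaged 19.8 ± 3.1 CPM in the overexpressing cells and 30.3 ± 2.0 CPM in the controls (SD, n = 3 each). It fell by 0.61 in edgeR's test (adjusted p = 0.0026), with a corrected value of -0.26 (adjusted p = 0.054).

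The partners of BRCA1 and BRCA2 were lower in both fits. BARD1, the RING partner of BRCA1, had 13.8, 12.0 and 15.6 CPM in the overexpressing libraries against 23.6, 24.3 and 21.6 CPM in the controls, and fell by 0.75 (SE 0.11, adjusted p = 0.00076), or 0.33 (adjusted p = 0.010) corrected. PALB2, which bridges BRCA1 to BRCA2, had 9.01, 6.66 and 9.15 CPM against 13.4, 15.8 and 11.9 CPM in the controls, and fell by 0.73 (SE 0.15, adjusted p = 0.0052), or 0.51 (adjusted p = 0.026) corrected. BRIP1 had 16.0, 14.7 and 20.1 CPM against 28.2, 30.5 and 27.5 CPM in the controls, and fell by 0.76 (SE 0.12, adjusted p = 0.0010), or 0.29 (adjusted p = 0.025) corrected. For each of the 3 genes all overexpressing libraries were below all controls. PALB2 had the lowest corrected value of any called repair gene.

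**Figure D4:**
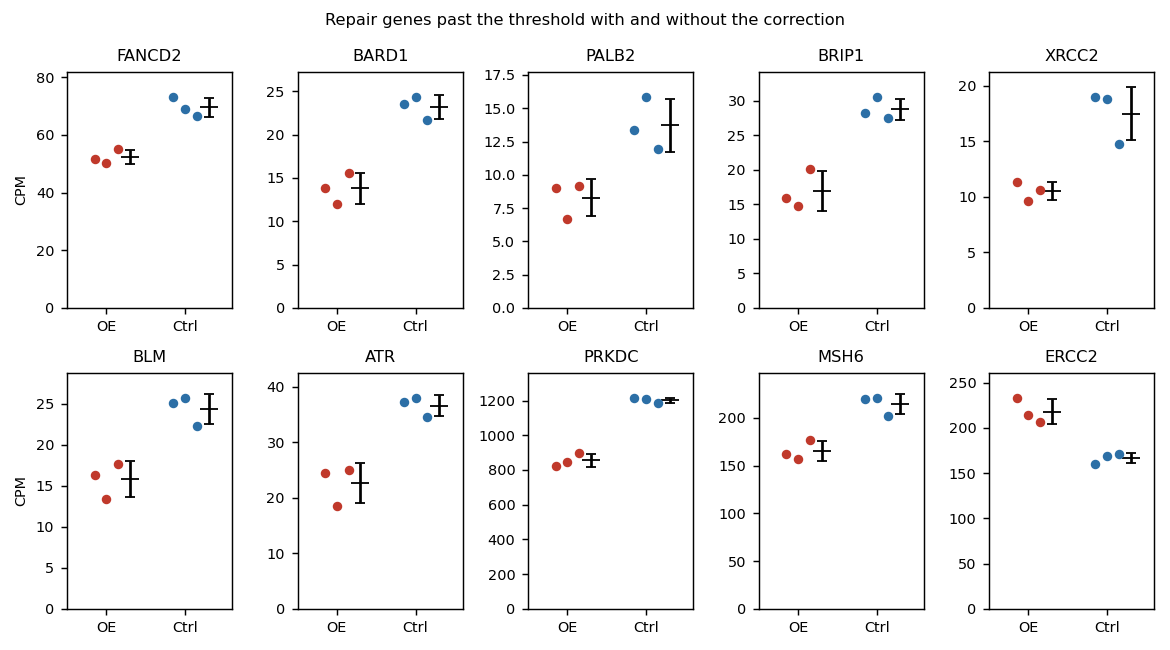
CPM of the 10 repair genes called in the same direction with and without the correction. Points are single libraries (left, overexpressing; right, wild-type control) and bars are the mean ± SD of 3 libraries; no overexpressing point reaches the control range for the 9 lower genes, and ERCC2 shows the reverse.

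XRCC2, XRCC3, RAD51B, RAD51C and RAD51D encode related proteins that form small complexes in homologous recombination. XRCC2 had 11.3, 9.65 and 10.7 CPM in the overexpressing libraries and 19.0, 18.8 and 14.7 CPM in the controls, and fell by 0.73 (SE 0.12, adjusted p = 0.0016), or 0.39 (adjusted p = 0.020) corrected. Control 3 was again the lowest control. XRCC3 had 146, 141 and 137 CPM in the overexpressing libraries and 127, 124 and 127 CPM in the controls. Its groups did not overlap, yet the 2 fits called it in opposite directions: log2 fold change 0.17 (SE 0.04, adjusted p = 0.012) as fitted and -0.18 (SE 0.04, adjusted p = 0.013) corrected. Without control 2 the first value was 0.15 (adjusted p = 0.059). RAD51B and RAD51C had log2 fold changes of -0.041 and -0.17 (adjusted p = 0.81 and 0.082). RAD51D was at 0.080 (adjusted p = 0.41) as fitted and 0.30 (adjusted p = 0.0096) corrected. Its canonical transcript has 9966 bases of which 984 are coding, and with the median GC content and length over its transcripts the value was -0.13 (adjusted p = 0.20).

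Of the remaining recombination genes 2 were lower and 2 did not pass as fitted. BLM, the helicase that dissolves joint molecules, had 16.4, 13.4 and 17.7 CPM in the overexpressing libraries against 25.1, 25.7 and 22.3 CPM in the controls, with no overlap, and fell by 0.62 (SE 0.11, adjusted p = 0.0023), or 0.31 (adjusted p = 0.029) corrected. WRN, a related helicase with an exonuclease domain, fell by 0.39 (adjusted p = 0.013), but its corrected value was 0.068 (adjusted p = 0.70), and without control 1 it was at -0.32 as fitted (adjusted p = 0.0635). The annealing protein RAD52 was at 0.023 on the same scale (adjusted p = 0.91). The translocase RAD54L was at -0.042 (adjusted p = 0.57) as fitted, with 53.0% GC, and at -0.19 (adjusted p = 0.015) corrected.

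Of 9 genes of break sensing and checkpoint signalling, 7 were lower and none higher, and 1 was lower after the correction. Among the entries at or above the lowest repair gene, 28.1% were lower as fitted and 16.6% corrected. The role had a median GC content of 41.25%. ATR, the kinase activated at stalled forks, had 24.5, 18.6 and 25.1 CPM in the overexpressing libraries and 37.4, 38.0 and 34.5 CPM in the controls. All 3 overexpressing libraries were below the controls, and ATR fell by 0.69 (SE 0.11, adjusted p = 0.0013), or 0.26 (adjusted p = 0.049) corrected. Its binding partner ATRIP did not follow: 29.6, 28.4 and 29.8 CPM stood against 26.3, 27.6 and 25.1 CPM in the controls. These groups did not overlap either, but the log2 fold change of 0.15 did not pass (SE 0.06, adjusted p = 0.098), and it was -0.042 corrected. ATRIP shares 31.6% of its exon bases with TREX1 on the same strand.

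The MRE11-RAD50-NBN complex, which senses and trims broken ends, was lower in all 3 subunits, MRE11 by 0.53, RAD50 by 0.60 and NBN by 0.41 on the log2 scale (adjusted p = 0.0072, 0.0023 and 0.040). RAD50 shares 91.0% of its exon bases with ENSG00000283782, a protein-coding gene on the same strand with no entry among those tested, so its counts may not be of RAD50 alone. Corrected values were -0.092, -0.22 and 0.0079, and none passed (adjusted p = 0.44, 0.065 and 0.97). NBN overlapped between the groups, since its highest overexpressing library had 37.1 CPM and its lowest control 36.2 CPM. Its call was lost without control 1 or 2 or overexpressing library 2 or 3 (-0.44 to -0.28, adjusted p = 0.0629 to 0.148). ATM, the kinase this complex activates, averaged 21.8 ± 2.7 CPM in the overexpressing cells and 33.9 ± 4.1 CPM in the controls (SD, n = 3 each). It fell by 0.64 in edgeR's test (adjusted p = 0.0021), with a corrected value of -0.13 (adjusted p = 0.21). The checkpoint kinase CHEK1 fell by 0.35 (adjusted p = 0.0012) and the chromatin reader TP53BP1 by 0.22 (adjusted p = 0.0040), with corrected values of -0.087 and 0.048 that did not pass. CHEK2, the other checkpoint kinase, was at -0.13 (adjusted p = 0.14). Several CHEK2 pseudogenes (7 in GENCODE 44) could share its reads.

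End joining included the most abundant repair genes and was split between the 2 Ku subunits. XRCC6 (Ku70) had 865, 825 and 803 CPM in the overexpressing libraries and 753, 740 and 742 CPM in the controls, above them in all 3, and rose by 0.16 (SE 0.04, adjusted p = 0.012). XRCC5 (Ku80), its obligate partner, averaged 586 ± 23 CPM in the overexpressing cells and 678 ± 16 CPM in the controls (SD, n = 3 each) and fell by 0.21 (adjusted p = 0.0039). The transcripts have 48.4% GC in XRCC6 and 42.5% in XRCC5, and neither passed after the correction (0.084 and -0.021, adjusted p = 0.23 and 0.79). XRCC6 was at 0.15 without control 2 (adjusted p = 0.0599). PRKDC, the catalytic subunit DNA-PKcs that Ku recruits, had 821, 848 and 898 CPM in the overexpressing libraries and 1214, 1208 and 1185 CPM in the controls. That difference, far outside the spread of either group, was the best supported fall of the 55 as fitted (log2 fold change -0.49, SE 0.04, adjusted p = 0.00013) and also after the correction (-0.18, SE 0.03, adjusted p = 0.0050). LIG4, the ligase of the pathway, had 3.88, 3.17 and 4.10 CPM in the overexpressing libraries against 6.34, 5.61 and 5.07 CPM in the controls. It fell by 0.61 (SE 0.15, adjusted p = 0.011), and its scaffold XRCC4 fell by 0.53 (adjusted p = 0.020). Their transcripts were the most AT-rich of the set (35.2% and 35.7% GC), and corrected values were -0.19 and -0.23 (adjusted p = 0.33 and 0.16). XRCC4 was at -0.49 without control 1 or control 2 and did not pass (adjusted p = 0.0692 and 0.0687).

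Single-strand break genes differed little. XRCC1, the scaffold of that pathway, had 159, 157 and 157 CPM in the overexpressing libraries and 136, 132 and 139 CPM in the controls, and rose by 0.22 (SE 0.04, adjusted p = 0.0022). Corrected, it was lower at -0.11 (SE 0.03) and lay at the threshold (adjusted p = 0.04995), which it missed with GC content alone (-0.046, adjusted p = 0.395). PARP2, a break-sensing polymerase of ADP-ribose, had 33.5, 32.0 and 38.1 CPM against 41.5, 36.2 and 33.0 CPM in the controls. These groups overlapped (log2 fold change -0.094, SE 0.10, adjusted p = 0.49). PARP1, the main enzyme of that kind, and the ligase LIG3 had log2 fold changes of -0.092 and -0.052 and did not pass (adjusted p = 0.13 and 0.49). Without overexpressing library 1 PARP1 was at -0.13 and passed (adjusted p = 0.0451).

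In mismatch repair MSH6, which finds base mismatches, had 162, 157 and 176.5 CPM in the overexpressing libraries and 220, 221 and 202 CPM in the controls. No library crossed between the groups, and MSH6 fell by 0.38 (SE 0.06, adjusted p = 0.00097), or 0.22 (adjusted p = 0.0078) corrected. MSH3, which acts on larger loops, fell by 0.36 (adjusted p = 0.019), with a corrected value of -0.090 (adjusted p = 0.47). The MSH3 call was lost without control 2 or overexpressing library 1 or 2 (-0.33 to -0.27, adjusted p = 0.0653 to 0.0811). PMS2, of the downstream endonuclease, had 38.0, 33.0 and 32.8 CPM against 37.5, 35.8 and 36.5 CPM in the controls and overlapped (log2 fold change -0.079, SE 0.07, adjusted p = 0.43). GENCODE 44 lists 15 pseudogenes named for PMS2, so its reads may be split.

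Nucleotide excision repair had 3 of 10 genes higher and 2 lower, near the 25.4% higher and 28.1% lower among the entries at or above the lowest repair gene. Its median log2 fold change was 0.071 (-0.023 corrected). ERCC2 had 233, 214 and 207 CPM in the overexpressing libraries and 160, 169 and 171 CPM in the controls, above them in all 3. It rose by 0.39 (SE 0.05, adjusted p = 0.00064), a 1.31-fold difference, and by 0.15 (adjusted p = 0.030) corrected. ERCC3, the other TFIIH helicase, was at 0.059 (adjusted p = 0.32). DDB1, an adaptor of CUL4 ubiquitin ligases, rose by 0.15 (adjusted p = 0.020) and ERCC1, of the nuclease that cuts 5′ of the lesion, by 0.16 (adjusted p = 0.030), neither of them past the threshold corrected (0.085 and -0.049). Both calls were lost without control 1 or 2 or overexpressing library 1 or 2, with values of 0.13 to 0.14 for DDB1 and 0.13 to 0.16 for ERCC1 (adjusted p = 0.0551 to 0.12). ERCC1 shares 47.1% of its exon bases with POLR1G on the opposite strand. ERCC4, the catalytic partner of ERCC1, and ERCC6, which acts at stalled RNA polymerase, fell by 0.38 each (adjusted p = 0.018 and 0.011). Corrected values were 0.018 and -0.0011. As fitted, ERCC4 was at -0.35 without control 1 and -0.32 without overexpressing library 2, and ERCC6 at -0.33 without control 1, none past the threshold (adjusted p = 0.0693, 0.0623 and 0.0551). The damage sensors XPC, DDB2 and XPA had log2 fold changes of 0.11, 0.084 and -0.22 and did not pass (adjusted p = 0.10, 0.63 and 0.23).

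ERCC5, the nuclease that cuts 3′ of the lesion, was a separate case. It had 5.53, 5.78 and 20.4 CPM in overexpressing libraries 1 to 3 and 24.2, 25.5 and 7.04 CPM in controls 1 to 3. The groups overlapped, with 1 library of each at the level of the other group, and the log2 fold change of -0.84 had an SE of 0.57 (adjusted p = 0.30). Without overexpressing library 3 it was -1.74 and passed (adjusted p = 0.0208). A second entry, the read-through gene BIVM-ERCC5, covers 91.7% of the ERCC5 exon bases on the same strand. It had 1635, 1467 and 0 counts in overexpressing libraries 1 to 3 and 0, 0 and 2167 counts in controls 1 to 3, so it held counts in exactly the 3 libraries where ERCC5 was low. BIVM, the upstream gene, was low in the same 3 libraries, with 252, 192 and 768 counts in the overexpressing libraries and 1086, 1470 and 353 counts in the controls. The 3 entries together had 2354, 2141 and 2606 counts in the overexpressing libraries and 3243, 3884 and 3152 counts in the controls. Summed, they made 27.5 ± 1.7 CPM in the overexpressing cells and 37.5 ± 3.1 CPM in the controls (SD, n = 3 each), with no overlap. By edgeR's quasi-likelihood test the sum fell by a log2 value of 0.45 (adjusted p = 0.00205), or 0.34 (adjusted p = 0.0095) corrected, a value chosen after seeing the data that cannot be shared out between ERCC5 and BIVM.

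**Figure D5:**
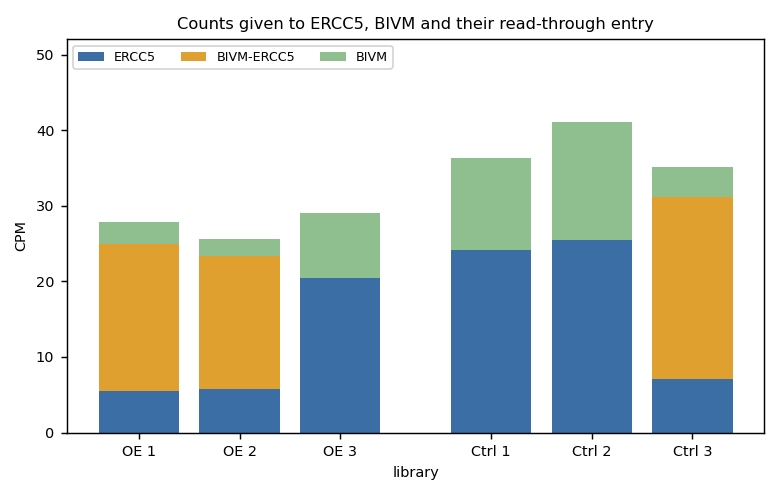
CPM given to ERCC5 (blue), the read-through entry BIVM-ERCC5 (yellow) and BIVM (green) in each library, stacked (OE, overexpressing; Ctrl, wild-type control). The read-through entry takes most of the bar in OE 1, OE 2 and Ctrl 3 and nothing in the other 3, while the whole bar is between 25.7 and 29.0 CPM in the overexpressing libraries and between 35.1 and 41.0 CPM in the controls.

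Set side by side per kilobase of canonical transcript, control levels ran from 0.729 CPM per kb (FANCF) to 351 CPM per kb (XRCC6). The most abundant genes after XRCC6 were XRCC5, DDB1, PRKDC and ERCC1, at 201, 113, 89.3 and 84.6 CPM per kb in the controls. In the overexpressing cells the levels of these 5 were 391.5 (XRCC6), 173 (XRCC5), 125.5 (DDB1), 63.6 (PRKDC) and 94.7 CPM per kb (ERCC1). PRKDC and ERCC1 thus stood in opposite order in the overexpressing cells and in the controls. BRCA2, FANCM and LIG4 were near the lower end, at 0.676, 0.542 and 0.934 CPM per kb in the overexpressing cells and 1.22, 0.895 and 1.42 CPM per kb in the controls.

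The other repair genes of the same pathways, 119 on a separate list, had 55 lower (46.2%) and 27 higher (22.7%), with a median of -0.12 on the log2 scale, beside 28.1% lower and 25.4% higher among the entries at or above the lowest repair gene. After correction 24 were lower (20.2%) and 9 higher (7.56%), with a median of -0.045, beside 16.6% lower and 15.1% higher among those entries. Calls in the same direction in both fits numbered 19 lower and 7 higher. The genes with the smallest p were RAD18, the ubiquitin ligase of damaged forks, MLH3, of mismatch repair, and SHLD2, of the shieldin complex that limits resection, which fell by 0.63, 0.76 and 0.76 (0.29, 0.38 and 0.41 corrected). On the other side BABAM2 and BABAM1, of the BRCA1-A complex, and FAAP100, of the FA core, rose by 0.41, 0.34 and 0.43, with corrected values of 0.33, 0.070 and 0.16, of which BABAM1 did not pass. All 9 translesion synthesis genes on the list were lower as fitted, and 2 of 9 were after the correction. Of the 20 base excision and direct reversal genes 9 were higher and 4 lower, and none was higher after the correction.

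Proliferation genes and RNA of the mitochondrial genome moved beside the repair genes, and their part in these results was not tested. A list of 28 S and G2/M genes had 18 lower and 5 higher as fitted, and 15 lower and none higher corrected. Among all entries 19.7% were lower and 18.3% higher as fitted, and 11.6% and 10.7% corrected. The 5 higher genes were CDT1, MCM7, MCM2, MCM5 and E2F1, at log2 fold changes of 0.35, 0.28, 0.24, 0.22 and 0.18. The summed level of the 28 genes was 7681 to 8216 CPM in the overexpressing libraries and 8526 to 8724 CPM in the controls. The proliferation marker MKI67 averaged 321 CPM in the overexpressing cells and 521 CPM in the controls (log2 fold change -0.70, corrected -0.50), and the topoisomerase TOP2A averaged 163 and 285 CPM (log2 fold change -0.81, corrected -0.41), each past the threshold both ways. All 13 mitochondrial messenger RNAs were lower in both fits, with a summed level of 8117 to 8830 CPM in the overexpressing libraries and 12940 to 14780 CPM in the controls.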

How the data were processed

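Gene counts came from total RNA of 6 H1299 libraries. Per the labels' protocols, the authors used fastp for trimming, HISAT2 for alignment to GRCh38, StringTie for assembly and quantification, and edgeR. Not given in the sources used here are tool versions, strandedness and how counts were taken. The deposited values were raw whole-number counts per gene.

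The quasi-likelihood test of edgeR 4.0.16 (R 4.3.3) was run on the counts, filtered by filterByExpr (min.count 10, min.total.count 15) and scaled by TMM, with the group alone in the model and Benjamini-Hochberg adjustment over 19101 entries. The threshold was an adjusted p of 0.05. The SE is the log2 fold change over the square root of F. Each entry took the GC content and length of its canonical transcript in GENCODE 44, known for 99.3% of entries tested. For the correction, natural splines (5 degrees of freedom) on GC content and on log2 length were fitted to the log2 CPM deviations of each library, and the fitted trend became an offset of the same model. The model was also run on simulated counts, with no GC trend or with the same linear GC trend in all overexpressing libraries. Trends between libraries of the same group were not simulated. Other settings were DESeq2 1.42.0, limma-voom (limma 3.58.1), other scalings and filters, a block on the replicate number and leaving out each library.

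The members, lists and alternatives were chosen with earlier results of these data known. Every member is named. Values in every library are given for members called the same way in both fits and for the largest and smallest fold change in each role, and the other repair genes named are the 3 higher and 3 lower ones with the smallest p. Exons of 16 members share at least 10% of their bases with another gene, and without strand such reads cannot be told apart. Within each group every pair of libraries differed beyond counting noise (chi-square over degrees of freedom, 11.6 to 22.7), so none was counted as a repeat run of another. This does not show that the libraries came from separate cultures. Some listed genes are not reported here.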

Additional observations from a re-analysis of the deposited data

How the results depend on the processing

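Scaling, filter and tool changed little without the GC correction. Over 13 such settings, 691 of 741 single-gene values kept their direction and side of the threshold, 35 lost the call, 5 gained it and 10 changed sign, for reasons not tested. With library size alone 5 repair genes were higher, and FANCA (-0.020) and RAD52 (-0.025) changed sign. Leaving out single libraries gave 3 to 8 higher and 23 to 28 lower repair genes, 18 to 31 higher and 37 to 54 lower other repair genes, and 2586 to 3439 higher and 2867 to 3730 lower entries. Signs changed in these fits for FANCA (-0.0050 to 0.058), FANCC (-0.055 to 0.021), RAD51B (-0.091 to 0.032), RAD52 (-0.041 to 0.11) and DDB2 (-0.070 to 0.19). By the study's criterion, a change over 2-fold and p under 0.05 without adjustment, 338 entries were higher and 226 lower, and 0 repair genes and 0 other repair genes were called either way, because none changed by 2-fold. At an unadjusted p under 0.05 in edgeR alone, 10 repair genes were higher and 29 lower, and 32 and 58 other repair genes.

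Same-numbered libraries deviated from their group means with correlations of -0.073, -0.26 and -0.44. Deviations within so few libraries depend on each other, so these values cannot show whether samples were prepared in pairs. A block on the replicate numbers left 3 higher and 28 lower repair genes. With the block and the GC and length correction 1 repair gene was higher and 8 lower, with 9 and 19 for other repair genes and 1516 and 1640 for all entries. Best matches lay between different numbers (0.36 for overexpressing library 3 and control 2).

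The GC and length correction gave 2 higher and 12 lower repair genes (1 to 2 and 4 to 15 when single libraries were left out), 9 and 24 other repair genes, and 2041 and 2223 entries. Without control 1 it gave 6 lower repair genes, without control 2 it gave 4, without control 3 it gave 9, and without overexpressing library 2 it gave 5. GC content alone gave 1 and 18, 13 and 25, and 2202 higher entries. Median GC content and length over transcripts, added after seeing the data, gave 2 and 19, 10 and 26, and 2040 higher entries. Signs that changed with GC content and length were FANCA -0.069, FANCE -0.076, FANCG -0.067, XRCC3 -0.18, WRN 0.068, NBN 0.0079, ATRIP -0.042, TP53BP1 0.048, XRCC1 -0.11, LIG3 0.13, PMS2 0.040, DDB2 -0.15, ERCC1 -0.049, ERCC3 -0.045 and ERCC4 0.018. With the block as well these were FANCA -0.070, FANCE -0.076, FANCG -0.068, XRCC3 -0.18, WRN 0.066, NBN 0.010, ATRIP -0.041, TP53BP1 0.048, XRCC1 -0.11, LIG3 0.13, PMS2 0.035, DDB2 -0.17, ERCC1 -0.049, ERCC3 -0.046 and ERCC4 0.015. With GC content alone they were FANCA -0.17, FANCE -0.038, FANCG -0.027, RAD51B 0.084, RAD51C 0.070, XRCC3 -0.14, ATRIP -0.12, XRCC5 0.0050, PARP2 0.019, XRCC1 -0.046, DDB2 -0.080, ERCC1 -0.057 and ERCC3 -0.0046. With medians over transcripts they were RAD51D -0.13, XRCC3 -0.14 and XRCC1 -0.069. There only the repair genes called after the GC and length correction were compared, so this list is not complete for the 55. FANCB, FANCF, FANCM and LIG4 had the fewest counts, and detection at other depths was not tested.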
